A study of Mus musculus with 4 samples.

Results

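The oxidative phosphorylation genes comprise the structural subunits of the respiratory chain and of ATP synthase, together with complex I assembly factors whose symbols share their prefix. They were chosen by symbol: mt-Nd, mt-Co, mt-Atp and mt-Cytb for the mitochondrial genome, and Ndufa, Ndufb, Ndufc, Ndufs, Ndufv, Sdha to Sdhd, Uqcr, Cox4 to Cox8 and Atp5 for the nuclear genome. Of 32285 listed genes, 107 had such a symbol, and the 102 with at least 50 unique molecular identifiers (UMIs, each counting 1 captured RNA molecule) over the 4 libraries were taken as members. They were 89 nuclear and 13 mitochondrial genes. The 5 symbols below the limit were Cox4i2 with 14 UMIs, Cox7b2 with 16, and Cox6a2, Cox8b and Cox8c with 0 each. The cells were tdT+ cells sorted from mouse cerebellum at E14.5 and profiled by 10x Genomics 3′ single-cell RNA sequencing. In the 2 control libraries the genotype was Atoh1-Cre/+; R26LSL-tdT/+, so that tdTomato marks cells in which the Atoh1-driven Cre has been active, and their descendants. The 2 En1/2 CKO (conditional knockout) libraries carried the same Cre and reporter alleles and in addition En1lox/lox and En2lox/lox, so both groups share the Cre driver and the reporter. Animals were pooled for each library, and values below are given in the order control replicate 1, control replicate 2, CKO replicate 1 and CKO replicate 2 wherever 4 are listed.

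As background, the respiratory chain passes electrons from NADH (complex I) and succinate (complex II) through complex III to complex IV, which reduces oxygen, and complex V uses the resulting proton gradient to make ATP. The mitochondrial genome encodes core subunits of complexes I, III, IV and V, transcribed as long polycistronic RNAs that are cut into shorter messengers. All subunits of complex II and most of those of the other complexes are nuclear-encoded and imported. In the embryonic cerebellum the Atoh1 lineage arises in the rhombic lip and gives the excitatory neurons of the cerebellar nuclei, granule cell progenitors, which proliferate strongly, and unipolar brush cells.

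The libraries held 7083, 6135, 4983 and 5170 barcodes, and 14998150 to 33709450 UMIs were counted in each. Barcodes passed with 500 or more genes, 1000 or more UMIs and a mitochondrial share of no more than 10%, leaving 2911, 3931, 2007 and 3697 cells with medians of 2734, 2122, 5352 and 5544 UMIs. Both CKO libraries were thus deeper per cell than both controls. Pairs of libraries shared 7 to 17 barcodes, of which 1 to 6 were kept in both. Kept cells were sorted into exclusive classes: those with more Meis2 than Pax6 UMIs (603, 2322, 573 and 372 cells), of the rest those with an Atoh1 UMI (668, 202, 739 and 1540), and of the rest those with a Neurod1 UMI (888, 625, 372 and 858). In the Meis2 > Pax6 cells, 9 markers of excitatory nuclei neurons summed to 2641, 3312, 3080 and 2804 CPM (UMIs scaled to a common total per library and class, here without TMM factors), against 229 to 476 in the Atoh1 cells. Meis2, which set the class, is among the 9, so part of this gap was fixed by the class rule. Granule lineage markers (9 genes) summed to 2244, 2048, 3014 and 3347 CPM in the Meis2 > Pax6 cells, higher in both CKO libraries. In the Atoh1 cells they summed to 3630, 3220, 3300 and 3581. Pax6, Atoh1 and Neurod1, which also set the classes, are among them. The part of these markers in the genotype values of the Meis2 > Pax6 cells was not tested. The targeted En2 stood at 136 and 167 CPM in the controls and at 29.0 and 19.8 in the CKO libraries, whereas En1 stood at 238 and 382 against 150 and 253. Where the deleted parts lie relative to the counted 3′ ends is not given in the sources used here. Erythroid markers (6 genes, all detected in these cells of every library) summed to 1981 and 2047 CPM in the control Atoh1 cells and to 12.6 and 2.01 in the CKO Atoh1 cells.

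The nuclear members together gave a larger percentage of UMIs in the CKO than in the control libraries, and the mitochondrial members a smaller one, before the depth of the cells was considered. Over all kept cells the 89 nuclear members held 2.10%, 1.78%, 2.37% and 2.37% of all UMIs, with group means of 1.94% ± 0.228 (SD, n = 2) in the controls and 2.37% ± 0.00457 in the CKO. The 12 mitochondrial members other than mt-Nd3 held 3.98%, 5.27%, 3.003% and 2.32%, with means of 4.62% ± 0.908 and 2.66% ± 0.486. The groups did not overlap in either measure, and the ratio of nuclear to mitochondrial UMIs was 0.518 and 0.331 in the controls against 0.782 and 1.00 in the CKO. Malat1, a nuclear long noncoding RNA, moved as the mitochondrial members did, at 3.85% and 7.56% in the controls against 1.71% and 2.88% in the CKO, and its part in these values was not tested. An exact permutation test of 2 against 2 libraries gives p = 0.333 for each of these shares, the smallest it can give, so no share could pass a threshold. P-values between CKO and control within a set of cells rest on the spread between pooled libraries. Those that compare classes, or the genotype effect between classes, rest on the spread of class differences across these libraries. Fewer cells of a type and less RNA per cell cannot be told apart in such sums.

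Within each class the 2 groups were likewise apart. Atoh1 cells held nuclear shares of 2.41%, 2.25%, 2.52% and 2.48%, Neurod1 cells 1.98%, 1.94%, 2.34% and 2.41%, and Meis2 > Pax6 cells 1.58%, 1.65%, 2.11% and 1.92%. In each class both CKO libraries were above both controls. The mitochondrial share ran the other way, at 2.91%, 3.92%, 2.53% and 1.99% in Atoh1 cells, 4.50%, 4.92%, 3.14% and 2.33% in Neurod1 cells, and 5.18%, 5.55%, 3.77% and 3.13% in Meis2 > Pax6 cells. The erythroid markers were higher in both controls in each class, at 91.8 and 5448 against 20.9 and 3.68 CPM in Neurod1 cells and at 53.4 and 3515 against 20.6 and 4.50 in Meis2 > Pax6 cells, beside the Atoh1 values above. Over all kept cells they overlapped (1254 and 4414 against 1993 and 3.26). GABAergic markers (7 genes) also separated over all kept cells, at 61.6 and 82.6 against 22.5 and 27.2 CPM. They separated in Atoh1 cells (26.4 and 55.7 against 8.80 and 19.1) and in Neurod1 cells (77.9 and 84.2 against 34.8 and 31.0). In Meis2 > Pax6 cells they overlapped. Without cells holding over 0.5% haemoglobin UMIs the log2 ratio of CKO to control for the mitochondrial share was -0.80, -0.60, -0.80 and -0.65 in all kept, Atoh1, Neurod1 and Meis2 > Pax6 cells, beside -0.80, -0.59, -0.80 and -0.64 with them. The part of the GABAergic markers was not tested. The plot of both shares by class shows the 2 genomes in opposite order in every class.

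**Figure D1:**
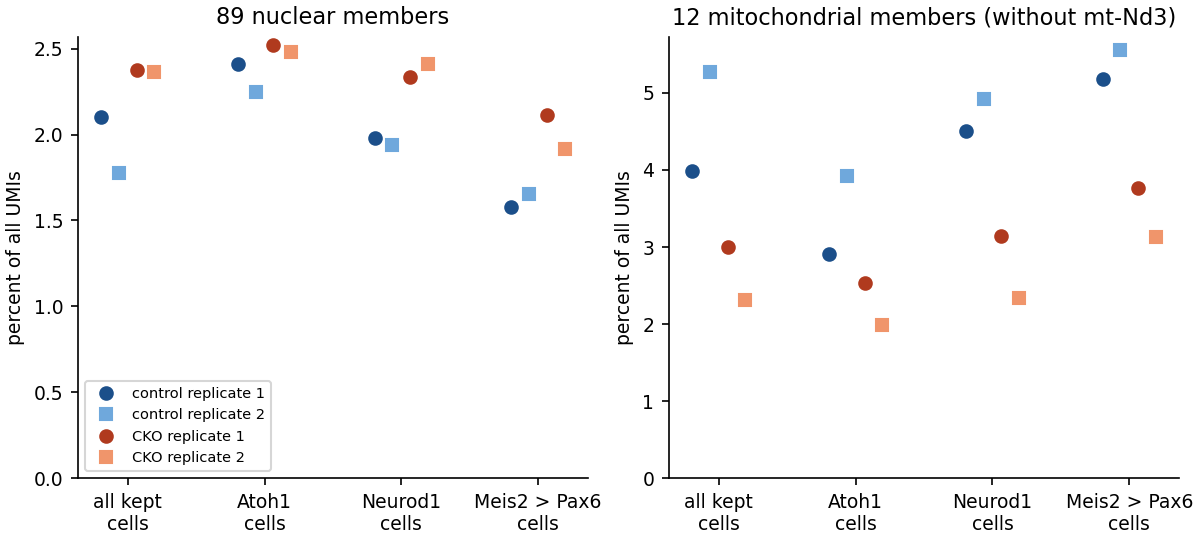
Percent of all UMIs held by the nuclear members (left) and by the mitochondrial members without mt-Nd3 (right) in all kept cells and in the 3 classes, 1 point per library. In each column both CKO points lie above both control points on the left and below them on the right.

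By complex, the nuclear shares were ordered alike. Over all kept cells the complex V genes held 0.657%, 0.522%, 0.755% and 0.766% of UMIs, complex I subunits 0.637%, 0.554%, 0.717% and 0.696%, and complex IV 0.561%, 0.508%, 0.637% and 0.633%. Complex III held 0.179%, 0.140%, 0.194% and 0.202%, and the smallest groups were complex II at 0.0392%, 0.0313%, 0.0446% and 0.0398% and the complex I assembly factors at 0.0282%, 0.0233%, 0.0256% and 0.0291%. The groups overlapped only for the assembly factors. On the mitochondrial side complex IV was the largest, at 1.70%, 2.30%, 1.29% and 1.04%, followed in every library by complex I, mt-Cytb of complex III and complex V, and both CKO libraries lay below both controls in each. Many nuclear members have processed pseudogenes, so their counts are uncertain where reads could be split between copies.

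Both shares differed with the depth of the cells. In cells with 8000 UMIs or more the nuclear share was 2.54%, 2.46%, 2.52% and 2.53%, and the groups overlapped. From 4000 to under 8000 UMIs it was 1.68%, 1.85%, 1.61% and 1.97%, and the groups overlapped. From 2000 to under 4000 UMIs it was 1.46%, 1.55%, 1.37% and 1.10%, and from 1000 to under 2000 UMIs 1.78%, 1.81%, 1.47% and 1.14%. In both of these shallow bins the CKO libraries lay below the controls, the opposite of the order over all kept cells. The mitochondrial share overlapped between the groups in all 4 bins. From the shallowest bin up, it was 5.16%, 4.84%, 6.17% and 5.16%, then 6.26%, 6.10%, 6.86% and 5.69%, then 5.77%, 5.25%, 6.13% and 3.84%, and last 2.32%, 3.03%, 2.42% and 1.88%. CKO replicate 1 was the highest in the first 3 bins and CKO replicate 2 the lowest in the last 3. The log2 ratio of CKO to control was 0.18, 0.02, -0.18 and -0.32. When the 4 bins were given equal weight, an alternative added after the data were seen, the nuclear shares became 1.86%, 1.92%, 1.74% and 1.69% and the mitochondrial ones 4.88%, 4.81%, 5.40% and 4.14%. With that weighting mt-Nd3, given apart from the other mitochondrial members, held 0.0925%, 0.0962%, 0.0537% and 0.0778%, still lower in both CKO libraries.

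**Figure D2:**
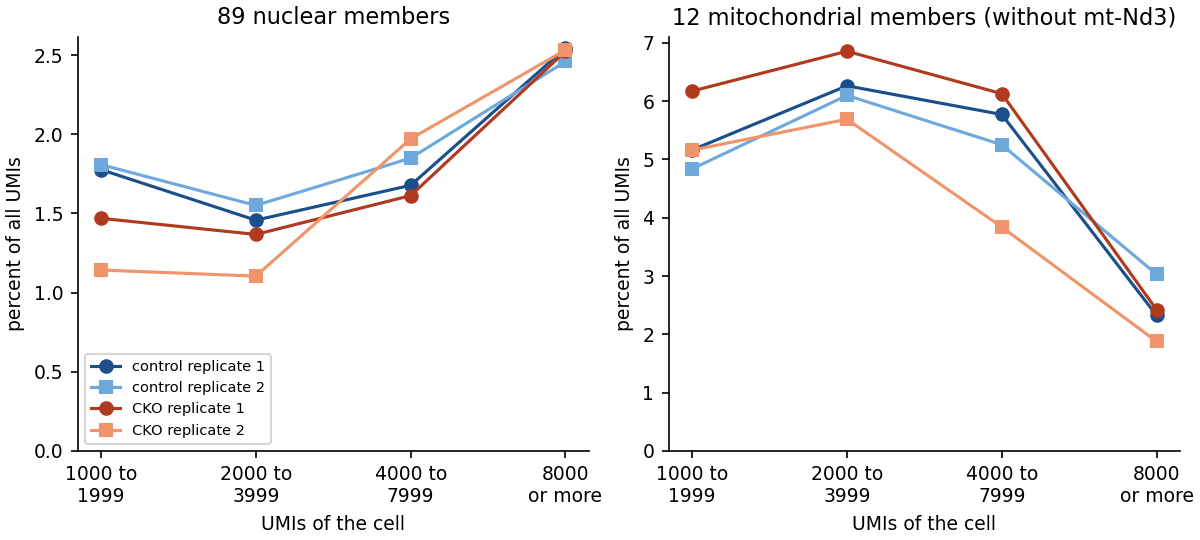
Percent of all UMIs held by the nuclear members (left) and by the mitochondrial members without mt-Nd3 (right) in kept cells of 4 ranges of UMIs per cell, 1 line per library. The lines meet near 2.5% on the left in cells of 8000 or more UMIs, and in cells under 4000 UMIs both CKO lines lie below both control lines.

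Gene by gene, most members differed with depth in the same direction in every library. Levels in cells of at least 8000 UMIs were set against those in cells under 4000 UMIs, for genes at 10 CPM or more. Of the 86 nuclear members at that level, 77 were higher in the deep cells in 4 of 4 libraries, where 28.4% of the 9186 genes were, and 2 were lower in all 4. All 13 mitochondrial members were lower in the deep cells in 4 of 4 libraries, where 44.9% of genes were. The median log2 difference was 0.85 for the nuclear members, -1.27 for the mitochondrial members and -0.20 for all genes. Atp5g2, which encodes a copy of the c-ring subunit of ATP synthase, differed by 1.22, 1.21, 1.54 and 1.55 on the log2 scale. Uqcr10, a small subunit of complex III, differed by 1.15, 1.05, 1.30 and 1.84. The 2 nuclear exceptions were Ndufaf7, a methyltransferase for complex I assembly (-0.40, -0.65, -0.68 and -1.01), and Ndufs1, the iron-sulfur subunit of the complex I electron-input module (-0.52, -0.13, -0.35 and -0.59). They were singled out after their values were seen.

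No member passed the test for a difference between CKO and control in any set of cells. edgeR's quasi-likelihood test on UMI sums per library, with Benjamini-Hochberg adjustment over all genes, called 0 of 102 members in all kept cells, where 0% of 14710 genes were called. It called 0 of 102 in the Atoh1 cells (0.113% of genes called), 0 of 101 in the Neurod1 cells (0.0257%) and 0 of 99 in the Meis2 > Pax6 cells (0.212%). At an unadjusted p under 0.05 there were 9, 5, 40 and 22 members. Over all genes tested there were 1648 of 14710, 639 of 13280, 1634 of 11672 and 1732 of 11804. DESeq2 called 1, 0, 17 and 4, and gave 43 members of the Neurod1 fit and 6 of the Meis2 > Pax6 fit no adjusted p. Its shares of all genes called are not given here. Leaving out a library, which assumes that the lone library of its group varies as the others do, gave 0 to 3 called members over all kept cells, with 3 without control replicate 1. Omitting CKO replicate 2 gave 4 in the Atoh1 cells and 9 in the Neurod1 cells, and omitting CKO replicate 1 gave 2 in the Neurod1 cells. In the Meis2 > Pax6 cells it gave 13 without CKO replicate 2, 2 without CKO replicate 1, and 1 without either control.

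The estimates nevertheless leaned by genome. Over all kept cells 86 of the 89 nuclear estimates were above 0, at a median of 0.39 on the log2 scale, and all 13 mitochondrial estimates were below 0, with a median of -0.67, beside a median of -0.01 over all genes. By class the nuclear medians were 0.18 in Atoh1, 0.38 in Neurod1 and 0.35 in Meis2 > Pax6 cells, and the mitochondrial ones -0.53, -0.64 and -0.62. At a mitochondrial limit of 5%, which removes cells by the UMIs of these genes, the mitochondrial medians were -0.12 over all kept cells (12 of 13 below 0), -0.11 in Atoh1, -0.30 in Neurod1 and -0.13 in Meis2 > Pax6 cells, and the nuclear ones 0.25, 0.06, 0.25 and 0.32. The nuclear lean was shared by other lists: over all kept cells the median was 0.80 for 80 cytosolic ribosomal proteins and 0.45 for 78 mitochondrial ribosomal proteins, with 0 called in either. In Meis2 > Pax6 cells these medians were 0.80 and 0.38. Restricted to cells with at least 4000 UMIs, the medians over all kept cells were 0.26 and -0.63. Restricted to cells under 4000 UMIs, 82 of 86 nuclear estimates were below 0 with a median of -0.43, and the mitochondrial median was -0.04. The nuclear medians were thus of opposite sign in these 2 depth sets, as the plot of members by depth shows. In the narrower depth bins above, the log2 ratio of CKO to control for the nuclear share was -0.47, -0.29, 0.02 and 0.02 from the shallowest up. The groups overlapped from 4000 UMIs up, so no bin over all kept cells had the CKO libraries higher. By class, at 8000 UMIs or more the nuclear share was higher in both CKO libraries in Meis2 > Pax6 cells only (2.29%, 2.09%, 2.35% and 2.44%). The mitochondrial share at that depth was lower in both in Neurod1 cells only (2.38%, 2.53%, 2.10% and 1.75%), and higher in both there from 1000 to under 2000 UMIs. Under 4000 UMIs the nuclear share was lower in both CKO libraries in every class. Members with the lowest p were mt-Nd3, mt-Nd4l and Ndufa12 over all kept cells. Ndufa12, an accessory complex I subunit, stood at 183, 132, 261 and 252 CPM (scaled by TMM factors), with both CKO libraries above both controls, for a log2 fold change of 0.71 (SE 0.26, edgeR adjusted p 0.440). In the Neurod1 cells Atp5h, a stalk subunit of ATP synthase, stood at 367, 348, 606 and 557 CPM (0.70, SE 0.19, edgeR adjusted p 0.234). In the Meis2 > Pax6 cells Cox7a2l, a factor of respiratory supercomplexes, stood at 158, 138, 280 and 258 CPM (0.86, SE 0.21, edgeR adjusted p 0.133). In cells under 4000 UMIs the estimates of these 3 genes were -0.25, -0.23 and -0.07.

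**Figure D3:**
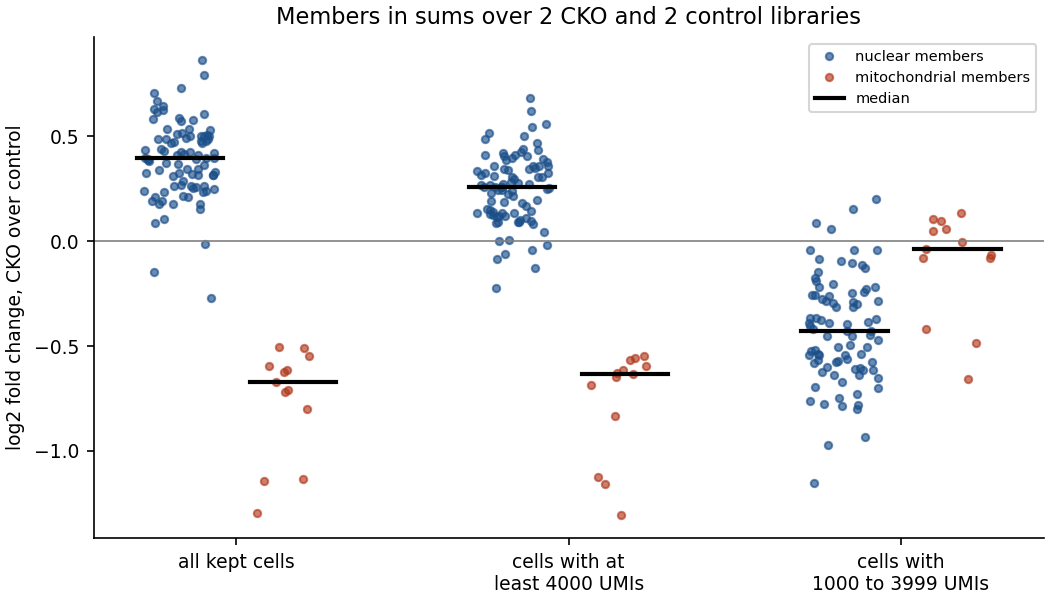
Log2 fold change of CKO over control for each member, from sums over all kept cells, cells with at least 4000 UMIs and cells under 4000 UMIs (1 point per member, black bar at the median, horizontal spread for display). The nuclear median goes from 0.39 and 0.26 to -0.43, and the mitochondrial median from -0.67 and -0.63 to -0.04.

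The genotype effect in Meis2 > Pax6 cells was also set against that in Atoh1 cells in 1 model. edgeR called 0 of 102 members for this interaction, with 0.0226% of 13303 genes called. No member had an unadjusted p under 0.05, where 1006 of all genes did. DESeq2 was not run for it. In cells with at least 4000 UMIs edgeR called 6 members, 1 higher and 5 lower, and the share of all genes called there is not given here. The lowest p belonged to Ndufb1-ps, which is counted among the complex I symbols (0.39, SE 0.20, edgeR adjusted p 0.695), to the complex I assembly factor Ndufaf1 (-0.62, SE 0.32, adjusted p 0.708) and to the complex III subunit Uqcr11 (0.34, SE 0.19, adjusted p 0.728).

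Within the mitochondrial genome, CKO replicate 1 stood apart from the other 3 libraries. mt-Nd3, a small complex I subunit, held 0.0768%, 0.104%, 0.0293% and 0.0460% of all UMIs over all kept cells, and both CKO libraries lay below both controls. As a percentage of the UMIs of the 13 mitochondrial members, however, mt-Nd3 was 1.89%, 1.94%, 0.968% and 1.95%. By this measure CKO replicate 2 lay beside the controls, and only CKO replicate 1 was low (95% Wilson interval 0.944% to 0.992%, counting error only). mt-Nd4l, another small complex I subunit, was 1.36%, 1.34%, 0.601% and 1.48%. mt-Atp8, the accessory subunit 8 of ATP synthase, was 0.514%, 0.424%, 0.104% and 0.560%. mt-Nd6, the complex I subunit encoded on the opposite strand, was 0.0874%, 0.0640%, 0.0399% and 0.139%. Smaller gaps in the same direction were found for mt-Nd2 (6.27%, 5.99%, 4.67% and 6.85%) and mt-Nd5 (0.683%, 0.623%, 0.549% and 0.920%). These 6 genes were lowest in CKO replicate 1 in each of 11 sets of cells, among them the classes, the depth bins and the barcodes above the mitochondrial limit. The sets share cells and libraries.

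The first 3 of these genes are the shortest of the 13. By GENCODE M21 (GRCm38) mt-Atp8 spans 204 bases (chrM:7766-7969), mt-Nd4l 297 (chrM:9877-10173) and mt-Nd3 348 (chrM:9459-9806), and mt-Nd6 is next with 519. Against the geometric mean of the other 3 libraries, CKO replicate 1 was at -2.26, -1.21, -0.99 and -1.20 on the log2 scale in these 4 genes. In mt-Nd2 (1038 bases) it was at -0.45, and in mt-Nd5, the longest of the 13 at 1824 bases, at -0.42. In the 7 others it was between -0.07 and 0.19. For the 12 nuclear members with transcripts under 500 bases the median of CKO replicate 1 against the others was -0.02 in log2 level, beside 0.28 for the 49 of 500 to under 1000 bases, 0.30 for the 20 of 1000 to under 2000 bases and 0.23 over all 86. For all genes under 500 bases (133) it was 0.09. mt-Atp8 shares its last 43 bases with mt-Atp6, and mt-Nd4l its last 7 with mt-Nd4, so a read in the shared bases belongs to either gene. The last 90 bases of the 3 shortest genes on the plus strand are shown with the bases shared with the next gene in capitals, from the GRCm38 sequence. Where the counted reads fell along these genes was not tested.
mt-Atp8 (chrM:7880-7969): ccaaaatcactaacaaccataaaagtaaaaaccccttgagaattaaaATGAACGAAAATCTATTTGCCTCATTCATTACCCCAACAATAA
mt-Nd3 (chrM:9717-9806): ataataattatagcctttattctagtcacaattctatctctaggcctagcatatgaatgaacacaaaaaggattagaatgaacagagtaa
mt-Nd4l (chrM:10084-10173): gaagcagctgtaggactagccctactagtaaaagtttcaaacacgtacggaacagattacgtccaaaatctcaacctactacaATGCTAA

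**Figure D4:**
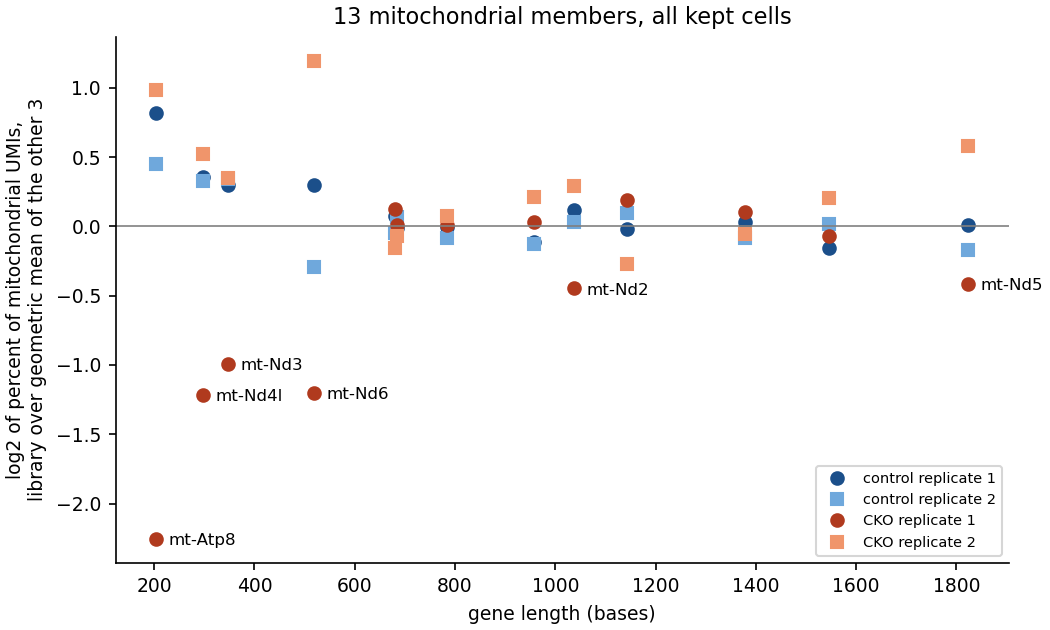
For each of the 13 mitochondrial members, the log2 of its percent of mitochondrial UMIs in 1 library over the geometric mean of the other 3, against gene length in bases, in all kept cells. CKO replicate 1 lies at -2.26 for mt-Atp8, the shortest gene, and near -1 for mt-Nd4l, mt-Nd3 and mt-Nd6.

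Between genotypes, the estimates of these genes were larger with that library than without it. The mt-Nd3 estimates were -1.14 over all kept cells (SE 0.35, edgeR adjusted p 0.440), -0.98 in Atoh1 (SE 0.28, adjusted p 0.469), -1.12 in Neurod1 (SE 0.25, adjusted p 0.207) and -1.07 in Meis2 > Pax6 cells (SE 0.26, adjusted p 0.131). Those of mt-Nd4l were -1.13, -1.03, -1.06 and -1.15, with edgeR adjusted p of 0.440, 0.488, 0.234 and 0.137. mt-Atp8 was at -1.17 in the Atoh1 cells (SE 0.43, edgeR adjusted p 0.801), where its levels were 156, 186, 28.1 and 122 CPM. Without CKO replicate 2, which leaves CKO replicate 1 as the only CKO library, edgeR called mt-Nd3 in the Atoh1 cells at -1.40 (adjusted p 0.00123), mt-Nd4l at -1.60 (adjusted p 2.61e-05) and mt-Atp8 at -2.59 (adjusted p 5.03e-18). Without CKO replicate 1 the same estimates were -0.65, -0.61 and -0.47, and none was called.

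The classes differed from each other across most members, with the nuclear and mitochondrial genes going opposite ways. Meis2 > Pax6 cells were compared with Atoh1 cells of the same libraries by edgeR with the library as a block. Of the 89 nuclear members 80 were lower in the Meis2 > Pax6 cells, where 30.7% of 13029 genes were lower, and 2 were higher, where 31.2% were higher. Of the 13 mitochondrial members 12 were higher and none lower. The median log2 fold change was -0.47 for the nuclear and 0.52 for the mitochondrial members, beside 0.01 over all genes. The Atoh1 cells were also the deeper class, with median UMIs of 6213, 2942, 16876 and 12820 against 2617, 2172, 3110 and 2248. The class rule itself depends on depth, since it asks for an Atoh1 UMI. With each cell thinned to 1000 UMIs it gave 221, 102, 205 and 404 Atoh1 cells, from 668, 202, 739 and 1540. The Meis2 > Pax6 cells went from 603, 2322, 573 and 372 to 463, 1918, 464 and 339. Class and depth cannot be told apart in the sums over all kept cells. In cells with at least 4000 UMIs 55 members were lower and 13 higher, 67 of the 68 being among those called in all cells, and in cells under 4000 UMIs 14 were lower and 2 higher. The shares of all genes called in these depth sets are not given here, so the counts cannot be set against them.

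By complex, complex I had 32 of its 37 nuclear subunits lower and 1 higher. Ndufc2, an accessory membrane-arm subunit, stood at 374, 364, 395 and 332 CPM in the Atoh1 cells and at 261, 267, 292 and 259 in the Meis2 > Pax6 cells, which did not overlap (-0.44, SE 0.07, edgeR adjusted p 5.47e-05). Ndufb9 did not pass the test (-0.15, SE 0.08, edgeR adjusted p 0.108). Ndufa12 stood at 239, 205, 306 and 281 against 118, 115, 175 and 169 CPM, again apart (-0.85, SE 0.08, edgeR adjusted p 1.19e-07). The exception was Ndufs1, at 52.9, 63.8, 55.7 and 51.0 against 72.7, 68.8, 57.7 and 62.2 CPM. It was higher in the Meis2 > Pax6 cells of all 4 libraries (0.22, SE 0.08, edgeR adjusted p 0.0315). It was singled out after its values were seen, it is the subunit named above as lower in deep cells, and its call was lost in cells with at least 4000 UMIs (0.14, adjusted p 0.245), at a mitochondrial limit of 5% (0.09, adjusted p 0.446), without the low-count filter (0.17, adjusted p 0.221), in cells under 4000 UMIs, where the estimate was larger (0.31, adjusted p 0.204), without control replicate 1 (0.14, adjusted p 0.205) and without CKO replicate 2 (0.21, adjusted p 0.119). Of the 8 assembly factors 5 were lower. Ndufaf1 (-0.34), Ndufaf3 (0.19) and Ndufaf7 (0.17) did not pass, nor did Ndufa8, Ndufa9 and Ndufa11 among the subunits.

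All 4 subunits of complex II, the succinate dehydrogenase of the citric acid cycle, were lower. Sdhb, its iron-sulfur subunit, stood at 168, 132, 203 and 159 CPM in Atoh1 cells and 104, 112, 179 and 120 in Meis2 > Pax6 cells, lower within each library (-0.37, SE 0.09, edgeR adjusted p 0.00266). Sdha, the flavin-bearing catalytic subunit, changed by -0.44 (SE 0.09, edgeR adjusted p 0.000293). All 8 nuclear subunits of complex III were lower. Uqcrh, its hinge subunit, stood at 500, 408, 563 and 589 against 236, 252, 408 and 359 CPM. Uqcr10 stood at 251, 223, 250 and 272 against 110, 125, 133 and 164 CPM. Each gene was lower in the Meis2 > Pax6 cells of all 4 libraries, and the classes overlapped only for Uqcrh, with log2 fold changes of -0.73 (SE 0.09, edgeR adjusted p 4.75e-06) and -0.91 (SE 0.09, edgeR adjusted p 2.11e-07). Uqcr11, another small subunit, was at -0.65 (SE 0.09).

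Complex IV had 14 of its 15 nuclear genes lower. Cox4i1, a regulatory subunit, had a small fall, from 805, 716, 971 and 917 CPM to 635, 642, 895 and 740 (-0.23, SE 0.07, edgeR adjusted p 0.00907). Cox7c, a small membrane subunit, changed by -0.47 (SE 0.08). The ends of the range belonged to isoforms counted at low levels. Cox6b2, described as a testis isoform, had 48, 3, 55 and 145 UMIs in Atoh1 cells and 1, 18, 5 and 3 in Meis2 > Pax6 cells (-1.97, SE 0.40, edgeR adjusted p 0.000456). Cox7a1, the heart and muscle isoform, had 17, 4, 35 and 39 against 1, 6, 5 and 4 UMIs (-1.20, SE 0.45, adjusted p 0.0291), a call that was lost without either control (-1.06 without replicate 1 and -0.97 without replicate 2) or without CKO replicate 1 (-1.10). Ndufa4l2, a hypoxia-induced relative of the complex IV subunit Ndufa4, had 4, 1, 24 and 4 UMIs in Atoh1 cells and 5, 8, 20 and 5 in Meis2 > Pax6 cells (1.70, SE 0.54, edgeR adjusted p 0.0116), and lost its call without control replicate 1 (1.62, adjusted p 0.0536).

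Complex V had all 17 of its nuclear genes lower. Atp5e, the epsilon subunit, changed by -0.78 (SE 0.08, edgeR adjusted p 4.9e-07) and Atp5b, the catalytic beta subunit, by -0.31 (SE 0.07, edgeR adjusted p 0.00202). Atp5g2 stood at 721, 585, 912 and 819 CPM in Atoh1 cells, 390, 341, 559 and 622 in Neurod1 cells and 277, 248, 518 and 379 in Meis2 > Pax6 cells, and the first and last of these did not overlap (-1.13, SE 0.10, edgeR adjusted p 8.07e-08). In cells with at least 4000 UMIs it was at -0.95 and in cells under 4000 UMIs at -0.46, both called (adjusted p 7.23e-06 and 0.000256). Atp5j, the coupling factor 6 subunit, stood at 458, 414, 606 and 486 against 211, 254, 393 and 302 CPM, apart as well (-0.78, SE 0.08).

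On the mitochondrial side, mt-Cytb, the cytochrome b of complex III, stood at 5053, 6692, 5221 and 3169 CPM in Atoh1 cells and at 8995, 10669, 7643 and 4970 in Meis2 > Pax6 cells. The classes overlapped across libraries, but within each library the Meis2 > Pax6 cells were higher (0.67, SE 0.07, edgeR adjusted p 5.31e-07). The complex I core subunits mt-Nd4 and mt-Nd2 changed by 0.66 and 0.55, and the catalytic-core subunits of complex IV by 0.53 (mt-Co1), 0.55 (mt-Co2) and 0.59 (mt-Co3). For ATP synthase mt-Atp6 was at 0.46 and mt-Atp8 at 0.47. mt-Nd3 (0.52), mt-Nd4l (0.47), mt-Nd1 (0.37) and mt-Nd5 (0.36) were higher too, and the SE of the 12 called genes was 0.07 to 0.09. Only mt-Nd6 did not pass (0.23, SE 0.11, edgeR adjusted p 0.0773). The class shares were also compared within depth bins. At 8000 UMIs or more the mitochondrial share was 2.64%, 3.599%, 2.80% and 2.09% in Meis2 > Pax6 cells. In Atoh1 cells it was 2.26%, 2.89%, 2.39% and 1.89%, so the Meis2 > Pax6 cells were higher in 4 of 4 libraries. The Meis2 > Pax6 cells were still shallower in that bin, with median UMIs of 12847, 10263, 16681 and 12743 against 17815, 11896, 18443 and 13859. From 1000 to under 2000 UMIs the share was higher in 2 of 4 libraries, from 2000 in 1 and from 4000 in 3. The mean log2 difference was 0.04, 0.02, 0.08 and 0.23 from the shallowest bin up, beside 0.64 at any depth.

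**Figure D5:**
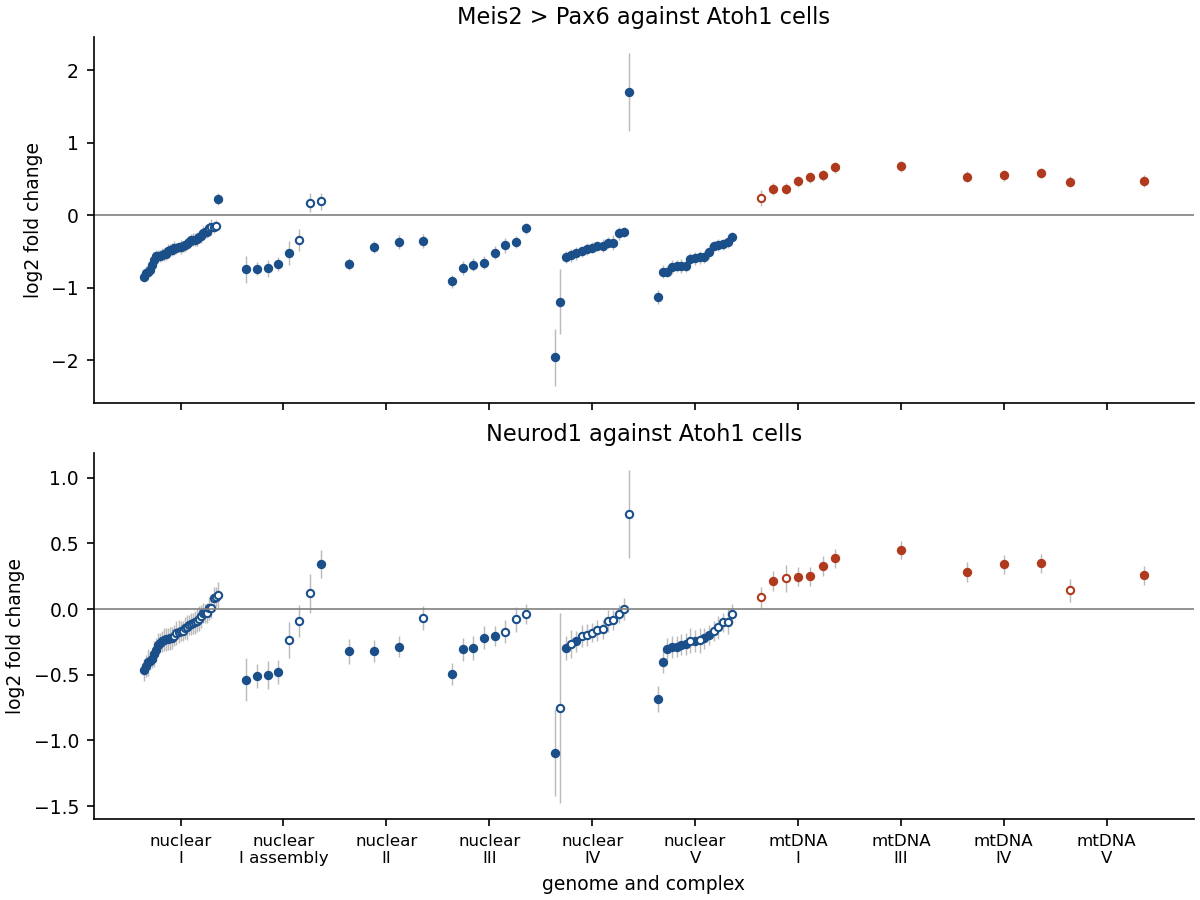
Log2 fold change of each member between classes, grouped by genome and complex and sorted within each group (filled points passed the edgeR test at an adjusted p under 0.05, open points did not, grey bars are standard errors). Nuclear points (blue) lie mostly below 0 and mitochondrial points (red) above 0, with medians of -0.47 and 0.52 in the upper panel and -0.21 and 0.26 in the lower panel.

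Over all kept cells Neurod1 cells differed from Atoh1 cells in the same directions. Against Atoh1 cells 40 nuclear members were lower (22.9% of genes were) and 1 nuclear and 10 mitochondrial members were higher (23.3% of genes were), with medians of -0.21 and 0.26. Atp5g2 was among the largest nuclear changes (-0.69, SE 0.10, edgeR adjusted p 3.26e-05). The nuclear gene that was higher was Ndufaf3, a complex I assembly factor (0.34, SE 0.11, edgeR adjusted p 0.0175), a call that was lost without CKO replicate 1 (0.32, adjusted p 0.0834) or CKO replicate 2 (0.32, adjusted p 0.0823). The assembly factors Ndufaf2 (-0.51) and Ndufaf8 (-0.50) were lower. In cells under 4000 UMIs neither was called, at -0.19 and 0.20, so Ndufaf8 turned direction there. Cox6b2 (-1.10) and Ndufaf6 (-0.54) were lower as well. Without control replicate 1 these 2 were not called (-0.96 and -0.51), nor was Cox6b2 without CKO replicate 1 (-0.95) or CKO replicate 2 (-1.002). Among the mitochondrial members mt-Cytb (0.45), mt-Nd4 (0.39), mt-Co3 (0.35) and mt-Co2 (0.34) were the leading ones. Without control replicate 1 the count of called members went from 51 to 28. With at least 4000 UMIs it was 14, of which 12 were called in all cells, and under 4000 UMIs it was 2, without the shares of all genes called there. At 8000 UMIs or more the nuclear share of Neurod1 cells was 2.57%, 2.87%, 2.63% and 2.64% against 2.56%, 2.50%, 2.55% and 2.51% in Atoh1 cells, higher in 4 of 4 libraries, whereas over all kept cells it was lower in 4 of 4. The mitochondrial share at that depth was 2.38%, 2.53%, 2.10% and 1.75% against 2.26%, 2.89%, 2.39% and 1.89%, higher in 1 of 4 libraries, whereas over all kept cells it was higher in 4 of 4. Both directions thus turned in the deepest cells. In Meis2 > Pax6 cells of that depth the nuclear share was 2.29%, 2.09%, 2.35% and 2.44%, lower than in Atoh1 cells in 4 of 4 libraries. An exact test over 4 pairs gives p = 0.125 for each order found in 4 of 4 libraries, the smallest it can give, and p = 0.25 for the mitochondrial share of the deep Neurod1 cells.

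The isoform families showed where a family was carried by 1 gene and where it was split. A 3′ UMI counts a molecule and is not scaled by transcript length, so these are shares of molecules counted, over all barcodes. Cox6b1 made up 98.9% to 99.4% of its pair with Cox6b2, and Ndufa4 99.7% to 99.9% of its pair with Ndufa4l2. Cox4i1 had 77214 UMIs against 14 of Cox4i2, Cox6a1 had 25914 against 0 of Cox6a2, and Cox8a had 57101 against 0 each of Cox8b and Cox8c. Cox7a2 and Cox7a2l shared the Cox7a family, with Cox7a2l at 35.5%, 25.8%, 34.03% and 42.0%, and Cox7a1 held 0.304% to 0.428%. The ATP synthase c-ring is encoded by 3 genes, whose mature proteins are the same. Atp5g2 held 56.1%, 53.3%, 57.2% and 57.9% of that family in Atoh1 cells, 47.8%, 46.0%, 49.7% and 53.0% in Neurod1 cells, and 44.2%, 38.1%, 49.5% and 47.8% in Meis2 > Pax6 cells. The order of the 3 classes was thus the same in all 4 libraries.

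Because the nuclear members fell together in Meis2 > Pax6 cells, their promoters were searched for the binding motifs of 3 factors known as regulators of respiratory genes. RefSeq promoters of GRCm38.p6, 300 bases around each start site, were found for 73 of the 89 nuclear members by symbol, 78 promoters in all. The NRF1 core GCATGCGC, on either strand, was in 12 of the 78 (15.4%), beside 2.71% of the 32851 promoters in the table. The ETS motif CCGGAAG of GABP was in 19 (24.4%, beside 8.86%) and the YY1 motif AAGATGGC in 10 (12.8%, beside 2.75%). None of these strings contains another. Members with an NRF1 match had a median log2 fold change of -0.39 in Meis2 > Pax6 against Atoh1 cells and those without -0.50. For ETS the medians were -0.55 with and -0.47 without a match, and for YY1 -0.55 and -0.47, so the order was the opposite of that for NRF1. For each motif the promoter of the member with the largest fall that holds it is printed. Sequences run 5′ to 3′ on the gene's minus strand, with the matches in capitals. They are Atp5g2 for NRF1, with overlapping matches on both strands, and Atp5j for YY1 and then ETS. Another promoter of Atp5j (chr16:84835576-84835875) held no match to the motifs and is not printed.
Atp5g2 (chr15:102670998-102671297): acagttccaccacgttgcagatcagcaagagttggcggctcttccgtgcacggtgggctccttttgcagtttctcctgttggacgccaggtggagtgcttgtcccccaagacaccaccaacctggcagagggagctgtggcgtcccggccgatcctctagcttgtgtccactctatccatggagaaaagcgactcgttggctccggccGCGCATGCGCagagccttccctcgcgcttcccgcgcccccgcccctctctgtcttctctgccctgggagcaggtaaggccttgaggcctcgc
Atp5j (chr16:84834927-84835226): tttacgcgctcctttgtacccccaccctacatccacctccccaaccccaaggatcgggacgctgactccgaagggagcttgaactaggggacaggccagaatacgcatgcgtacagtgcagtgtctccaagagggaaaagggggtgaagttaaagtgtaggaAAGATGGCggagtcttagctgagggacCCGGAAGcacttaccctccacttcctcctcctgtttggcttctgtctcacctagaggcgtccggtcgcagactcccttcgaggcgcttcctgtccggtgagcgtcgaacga

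The regulators themselves were measured in the same comparison. Of 16 tested genes of that list 4 were higher and 7 lower in Meis2 > Pax6 cells, beside 31.2% and 30.7% of all genes. Nrf1 (-0.31, edgeR adjusted p 0.0097), Gabpa (-0.46, adjusted p 0.0045) and Yy1 (-0.26, adjusted p 0.0059) were lower. Tfam, the main transcription and packaging factor of mitochondrial DNA, stood at 49.7, 50.4, 48.7 and 51.6 CPM without TMM scaling in Atoh1 cells and 29.0, 25.8, 35.5 and 38.8 in Meis2 > Pax6 cells, which did not overlap (-0.71, SE 0.10). Esrra, an orphan receptor acting on respiratory genes, was higher (0.38, SE 0.09), as was the coactivator Ppargc1a, at 3.31, 6.31, 2.53 and 4.63 against 14.8, 11.3, 6.56 and 4.50 CPM (1.07, SE 0.29, edgeR adjusted p 0.0044). In CKO replicate 2 Ppargc1a was not higher by these unscaled values. Mycn, a driver of progenitor growth, was lower (-0.90, SE 0.10), and so was Cycs, the electron carrier cytochrome c (-0.66, SE 0.09). Between CKO and control none of the regulators was called in any of the 4 sets of cells.

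Other mitochondrial and related lists are given for Meis2 > Pax6 against Atoh1 cells, where 30.7% of all genes were lower and 31.2% higher. Mitochondrial ribosomal proteins had 72 of 78 genes lower and 1 higher (median log2 fold change -0.57). Assembly factors outside the chosen symbols had 17 of 39 lower and 1 higher (-0.26), and genes of mitochondrial transcription, replication and RNA processing 14 of 34 lower and 1 higher (-0.33). Mitochondrial translation factors had 4 of 12 lower (-0.18), a share near that of all genes, electron carriers and adenine nucleotide transport genes 11 of 20 lower and 1 higher (-0.33), and mitochondrial chaperones and proteases 8 of 14 lower and 1 higher (-0.35). The citric acid cycle had 9 of 19 lower and 1 higher (-0.16), and glycolysis 12 of 21 lower and 5 higher (-0.29). Cytosolic ribosomal proteins, which are not mitochondrial, had 80 of 80 lower (-0.96), a larger median fall than that of the nuclear members. In Neurod1 cells glycolysis differed from the nuclear members in direction, with 10 of 21 genes higher and 5 lower (median 0.26), beside 23.3% and 22.9% of all genes, while 49 of 78 mitochondrial ribosomal proteins were lower and none higher.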

How the data were processed

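The deposited matrices hold raw UMI counts per gene and barcode, made by the authors with Cell Ranger 5.0.0 per the file headers and aligned to mm10 per the submitters' processing notes. How reads shared with processed pseudogenes, which many nuclear members have, were counted is not given in the sources used here. Members and gene lists were chosen with earlier results of these data known. Counts were summed per library and class. Sums were tested with edgeR 4.0.16 (quasi-likelihood F test, two-sided, TMM factors, filterByExpr, R 4.3.3), fitted to all genes, with Benjamini-Hochberg adjustment and a threshold of 0.05. CKO fits used 4 sums, class fits 12 sums with the library as a block, and the interaction fit 8 sums. Shares of UMIs were compared by exact permutation test on log2 values (scipy). The edgeR step was tested on simulated counts. No doublets were removed in the main values. A simulated-doublet score gave 68, 124, 32 and 109 cells to remove as an alternative, and DESeq2 1.42.0 was another. All 102 members were found in GENCODE M21. Named were all mitochondrial members, 2 nuclear subunits per complex with the most UMIs, isoform families, up to 5 called members each way per fit or else the 3 with the lowest p, and listed regulators. Replicates 1 and 2 exist in each group, and no label says that the numbers pair libraries.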

Additional observations from a re-analysis of the deposited data

Results flagged for a closer look

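The barcodes above the mitochondrial limit enter no test between groups or classes. They are 1 of the 11 sets of cells in which mitochondrial genes were compared by library, and they are part of the isoform shares over all barcodes. In CKO replicate 1 they were 53.2% of the barcodes with enough genes and UMIs (2278 of 4285), beside 41.4% and 30.6% in the controls and 15.4% in CKO replicate 2. In these barcodes the nuclear members held 1.47%, 1.43%, 1.33% and 1.11% of UMIs. Groups of 2 libraries were not tested for outlying samples.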

How the results depend on the processing

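Of the values for shares, 165 alternatives kept the direction and 13 reversed it. In cells under 4000 UMIs the log2 ratio of CKO to control for the nuclear share was -0.3537 in all kept, -0.2975 in Atoh1, -0.3956 in Neurod1 and -0.3764 in Meis2 > Pax6 cells, and for the mitochondrial share 0.05739, 0.1106, 0.03377 and 0.006426. With equal weight of the depth bins the nuclear values were -0.1403, -0.1322, -0.1988 and -0.1422, and as a mean over cells the Meis2 > Pax6 value was -0.1046. Single genes reversed in cells under 4000 UMIs: Ndufaf8 in Neurod1 against Atoh1 cells (0.1955), Uqcr11 in the interaction (-0.2099), and between genotypes Ndufa12 in all kept (-0.2467), Atp5h in Neurod1 (-0.2264) and Cox7a2l in Meis2 > Pax6 cells (-0.06722). Cox7a1 reversed with classes set on thinned counts (0.07142). Between genotypes, without the low-count filter edgeR called 3 members in all kept, 3 in Atoh1, 6 in Neurod1 and 4 in Meis2 > Pax6 cells, and DESeq2 called 1 in all kept, 17 in Neurod1 and 4 in Meis2 > Pax6 cells. Leaving out each library gave 0 to 3, 0 to 4, 0 to 9 and 1 to 13 called members in these 4 sets, and 28 to 46 for Neurod1 against Atoh1 cells. That contrast gave 16 at a mitochondrial limit of 5%, 14 at 4000 UMIs or more, 2 under 4000 UMIs and 7 with thinned classes. Meis2 > Pax6 against Atoh1 cells gave 16 under 4000 UMIs, and the interaction 6 at 4000 UMIs or more. The cause was not tested, and the shares of all genes called at these settings are not given here. With the replicate number as a block edgeR called 1 member in Atoh1 cells, mt-Atp8 (-1.55, adjusted p 0.019). Same-numbered libraries did not deviate together from their group means (r = -0.34 across 9186 genes). Each group of 2 libraries gives only 1 such contrast, so this cannot tell whether same-numbered libraries share a batch. With 2 libraries a group, no share could pass a test.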
